A study of Homo sapiens with 8 samples.

Results

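The autophagy core genes are the genes whose products build the autophagosome, load it with cargo and fuse it with the lysosome. A list of 43 such genes was followed through a RIP-chip experiment, in which RNA bound to AGO2 was collected by RNP immunoprecipitation (RIP) and compared with input RNA on microarrays. A gene counted as measured when a probe of it, named by RefSeq accession, passed the scanner's test for being well above background on each of the 8 arrays, and the brightest probe that passed represents the gene. Of the 43 listed genes, 34 were measured, among 10956 measured genes in all.

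The cells were A431, an established human cutaneous squamous cell carcinoma line known for its high level of the EGF receptor. They were transfected with 10 nM of a control miRNA (miR-NC) or of miR-634 and were lysed after 24 h, and input and RIP of each kind of cells were hybridized on 2 one-colour arrays, which gives 4 groups. The RIP used an anti-AGO2 antibody. The input was total RNA in the study's methods, whereas the antibody in the sample labels of these arrays is normal rabbit IgG, and they are treated here as input. Nothing in the sources says whether the duplicates were separate transfections, so that the p-values measure only the spread between these arrays, which may be technical.

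In autophagy, a kinase complex started by ULK1 and a lipid kinase complex built on PIK3C3 and BECN1 mark a membrane, which then grows around its cargo. Ubiquitin-like conjugation enzymes attach proteins of the ATG8 family (LC3 and GABARAP) to this membrane, cargo receptors such as SQSTM1 bind them, and SNARE proteins fuse the finished autophagosome with the lysosome. In squamous carcinoma cells, as in other cells, the pathway supplies amino acids and removes damaged mitochondria. A miRNA loaded into AGO2 pairs with target transcripts mainly through its seed, so that transcripts held by the miRNA can become more abundant in the RIP than in the input.

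The mature miR-634 sequence is shown because its seed is what AGO2 would read in these transcripts. It is encoded at chr17:66787132-66787153 on the plus strand (GRCh38.p14, RefSeq), and the capitals mark bases 2 to 8, the seed.
hsa-miR-634: aACCAGCAccccaacuuuggac
A transcript pairs with this seed through the 7 bases UGCUGGU. Of the 2370 mature miRNA names in the RefSeq table, 1, hsa-miR-634 itself, has this seed. Transcript sequences were not used here, so that no site was sought in the autophagy genes.

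Levels below are log2 intensities minus the 75th percentile of the same array. Subtracting the input level from the RIP level gives the enrichment, and subtracting the enrichment of miR-NC cells from that of miR-634 cells gives the fold change of enrichment, all on the log2 scale. Levels of different genes are not compared, because each rests on its own probe. Each change was tested with limma across the 10956 measured genes, Benjamini-Hochberg adjusted p-values are given, and a gene is called when the adjusted p is under 0.05. Spots well above background made up 45.6% to 45.8% of an input array, 33.6% and 34.5% of the miR-NC RIP arrays and 40.0% of both miR-634 RIP arrays. This difference between the RIP arrays moves with the comparison, and its part in the results was not tested. The 8 arrays shared a slide on which input and RIP occupied different rows and miR-NC and miR-634 different columns, so that position and group cannot be told apart. All 7 squamous markers (EGFR, KRT5, KRT14, KRT17, KRT6A, CDH1 and TP63) were measured. Of the fibroblast, leukocyte and endothelial markers, COL1A2, THY1, CD3E and PECAM1 were above background on no array and CD68 had no named probe. By the probe detected most often, the fibroblast markers COL1A1 and PDGFRB were above background on 4 and 6 arrays, both miR-634 RIP arrays among them, the leukocyte marker PTPRC on 4, and VWF on all 8. Their part in the results was not tested. Between duplicates, the median SD over the 34 autophagy genes was between 0.03 and 0.06 in the 4 groups.

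The enrichment of 25 of the 34 autophagy genes, beside 71.4% of all measured genes, differed between miR-634 and miR-NC cells. It was higher for 5, where 28.1% of all measured genes were higher, and lower for 20, where 43.3% were lower. The 5 were ATG13 and ATG101 of the ULK1 complex, the E1-like enzyme ATG7 and the ATG8 proteases ATG4A and ATG4D. ATG13, ATG101, ATG7 and ATG4A rose more than 2-fold (4 of 34 genes, 11.8%, beside 13.3% of all measured genes). By the brightest probes no autophagy gene fell more than 2-fold, beside 8.56% of all genes. Dimmer probes above background on all 8 arrays gave -1.42 for TFEB and -1.12 for ATG4C, and the mean of the probes gave -1.205 for TFEB. The median fold change of enrichment was -0.40 over the autophagy genes and -0.22 over all measured genes, and 23 of the 34 lay below the median of all genes. Because 0 is set by the 75th percentile of the probes, a value below 0 can still lie above the typical gene, as those of ATG9A, ATG5, RB1CC1 and ATG4B did. With every contrast centred on the median gene, 6 autophagy genes were higher and 14 lower, beside 3845 and 3349 of all 10956 genes. When the 8 spike-in probes set the scale, the median of all genes rose to 0.88, with 7284 genes higher and 177 lower. Of the 34 autophagy genes, 22 were then higher and 0 lower. Each setting that left out 1 array gave 5 higher. For all 25 called genes, the arrays numbered 1 and those numbered 2 gave the same sign. So did 89.8% of all measured genes, called or not. The calls rest on these same arrays, so this is no separate support for them.

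**Figure D1:**
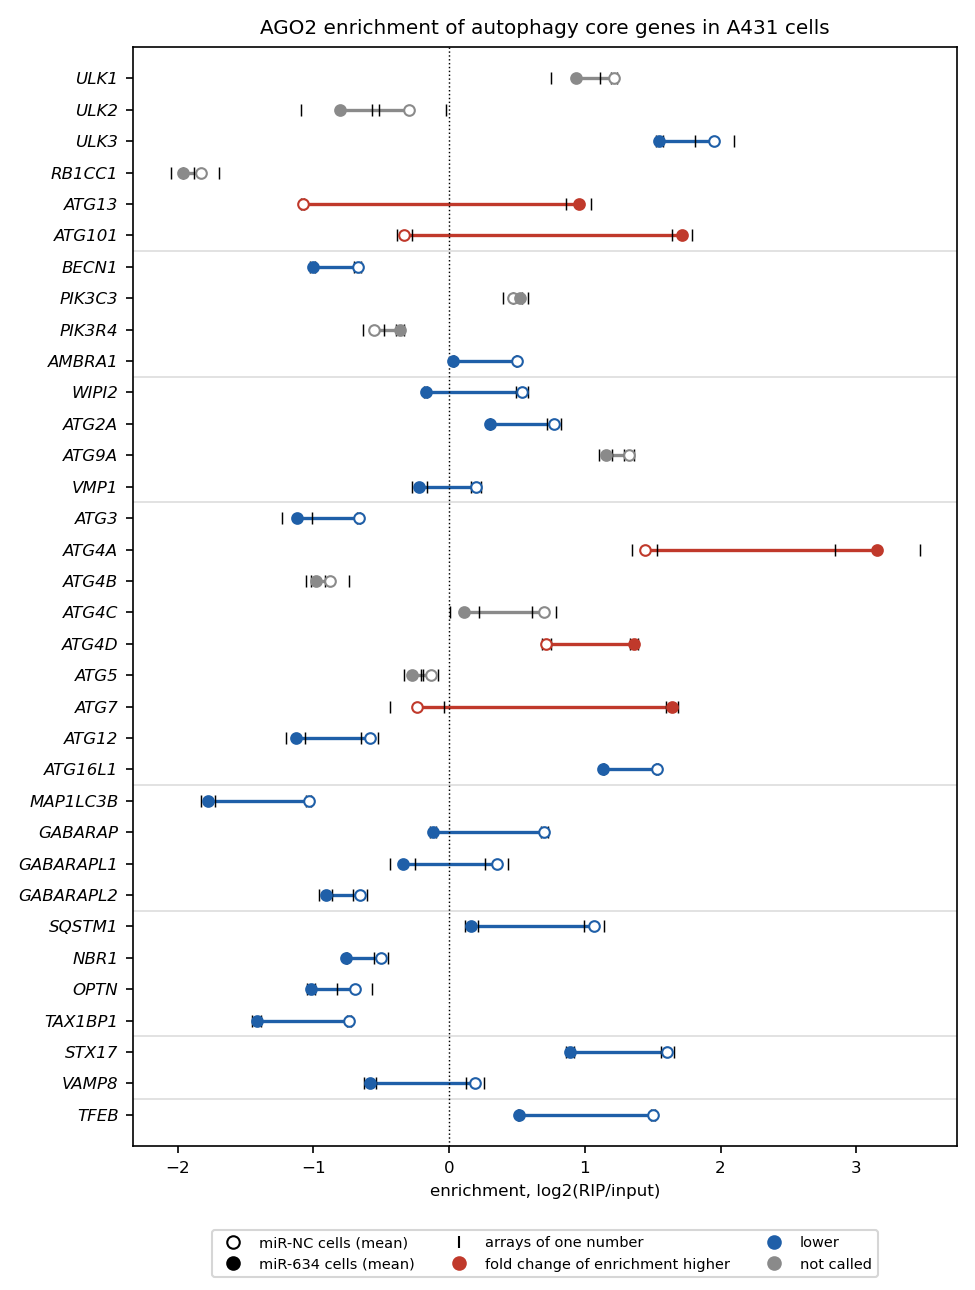
Enrichment, as log2 RIP/input (x axis), of the 34 measured autophagy genes in order of their role (grey lines part the roles); open circles are means in miR-NC cells, filled circles means in miR-634 cells, and black ticks the values of the arrays of each number (n = 2). ATG13, ATG101, ATG7, ATG4A and ATG4D move to the right in red and 20 genes move to the left in blue, except when the spike-in probes set the scale, where 0 are lower.

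In miR-NC cells, the autophagy transcripts were already spread widely between RIP and input. The RIP level was higher than the input for 18 of the 34 (33.6% of all measured genes) and lower for 13 (45.3% of all), and the median enrichment was 0.19, beside -0.12 over all measured genes. In miR-634 cells, 13 were higher (36.1% of all) and 18 lower (48.3% of all), and the median was -0.15, beside -0.17 over all genes. With centring on the median gene, this split in miR-634 cells was 15 higher and 13 lower, beside 4601 and 4611 of all 10956 genes. With median scaling it was 15 and 15, beside 4280 and 4911. With spike-in scaling, 34 were lower in miR-NC cells, and 1 was higher and 27 lower in miR-634 cells. Over all genes, 10751 were then lower in miR-NC cells, and 665 were higher and 9226 lower in miR-634 cells. ULK3, a kinase related to ULK1, had the highest enrichment in miR-NC cells, at 1.96, and RB1CC1, the scaffold of the ULK1 complex, the lowest, at -1.83.

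The initiation group, the ULK1 complex that starts autophagosome formation together with the related kinase ULK3, had 6 measured genes. Of these, 2 were higher, 1 (ULK3) was lower and 3 were not called, beside 28.1% higher and 43.3% lower over all genes. ATG13, the adaptor that links ULK1 to RB1CC1, had input levels of -3.20 and -3.05 and RIP levels of -4.29 and -4.11 in miR-NC cells. In miR-634 cells its input levels were -3.54 and -3.28 and its RIP levels -2.49 and -2.41. The miR-634 RIP arrays were thus the highest of the 8 and the miR-NC RIP arrays the lowest, with no overlap between groups of RIP arrays. This gave a fold change of enrichment of 2.04 (SE 0.16, limma adjusted p = 5.57e-05), and a dimmer ATG13 probe for NM_001205119 gave 1.09.

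ATG101, which binds ATG13 and stabilizes it, had input levels of -0.81 and -0.76 and RIP levels of -1.08 and -1.15 in miR-NC cells. In miR-634 cells the input levels were -0.76 and -0.80 and the RIP levels 0.88 and 0.99. The 4 input arrays overlapped, and the miR-634 RIP arrays stood above all others. The fold change of enrichment was 2.05 (SE 0.08, limma adjusted p = 3.18e-06), the largest of the autophagy genes in this fit. ATG13 and ATG101 passed from a called depletion in the RIP of miR-NC cells to a called enrichment in miR-634 cells, at -1.08 and 0.96 for ATG13 and at -0.33 and 1.72 for ATG101. With spike-in scaling, however, the enrichment of ATG13 in miR-634 cells was -0.53, and that of ATG101 was 0.23 and not called.

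ULK1, ULK2, RB1CC1 and ULK3 did not share this rise. ULK1, the initiating kinase, had RIP levels of -1.52 and -1.49 in miR-NC cells and of -1.80 and -2.30 in miR-634 cells, and a fold change of enrichment of -0.28 (SE 0.22, limma adjusted p = 0.276). Without the miR-634 RIP array numbered 1, the ULK1 value was -0.53 and passed the threshold. ULK2, its paralog, gave 0.05 for the first number and -1.07 for the second, the only measured autophagy gene whose arrays disagreed in sign. RB1CC1 had overlapping RIP levels, -3.49 and -3.89 in miR-NC cells and -3.62 and -3.90 in miR-634 cells, with a fold change of -0.13 (SE 0.21, limma adjusted p = 0.591). It was the most depleted of these transcripts in the RIP of both kinds of cells, at -1.83 and -1.96. ULK3 was lower, at -0.41 (SE 0.10, limma adjusted p = 0.0122), and no longer called with centring on the median gene.

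The genes of the PIK3C3 lipid kinase complex, which makes the phosphoinositide that recruits later factors, moved little on this scale. Of 4 measured genes, 0 were higher and 2 were lower, beside 28.1% and 43.3% of all measured genes. AMBRA1, a regulator of BECN1, had -0.46 (SE 0.06, limma adjusted p = 0.000509), and BECN1, the core subunit, had -0.33 (SE 0.06, limma adjusted p = 0.00257). The RIP levels of BECN1 were -1.11 and -1.15 in miR-NC cells and -1.32 and -1.31 in miR-634 cells. Its call was lost with centring on the median gene. The kinase PIK3C3 had 0.06 (SE 0.11) and its partner PIK3R4 had 0.20 (SE 0.09), and neither was called. With centring, PIK3R4 passed the threshold at 0.41. With spike-in scaling PIK3C3 had 1.16, PIK3R4 1.30, BECN1 0.77 and AMBRA1 0.64, all called higher.

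Membrane supply comprised WIPI2, which reads the phosphoinositide and recruits ATG16L1, the lipid transfer protein ATG2A, and the scramblases ATG9A and VMP1. All 4 were enriched in the RIP of miR-NC cells, beside 33.6% of all measured genes. The enrichment of 3 of the 4 was lower in miR-634 cells, beside 43.3% of all genes. With spike-in scaling ATG2A and VMP1 were higher, at 0.63 and 0.68, and WIPI2, at 0.39, was not called. All 4 were then depleted in the RIP of miR-NC cells, at -2.04 for WIPI2, -1.81 for ATG2A, -1.26 for ATG9A and -2.38 for VMP1. WIPI2 had RIP levels of 0.69 and 0.78 in miR-NC cells and of 0.11 and 0.10 in miR-634 cells, while its inputs lay between 0.19 and 0.30. Its fold change of enrichment was -0.71 (SE 0.07, limma adjusted p = 0.000154). A dimmer WIPI2 probe for NM_015610 gave 0.06, and the mean of both probes gave -0.32, which was not called. By that dimmer probe the enrichment in miR-NC cells was -0.03. ATG2A had RIP levels of 0.91 and 0.89 in miR-NC cells and of 0.80 and 0.85 in miR-634 cells, close together, while its inputs rose from 0.18 and 0.07 to 0.49 and 0.55. Its RIP change, -0.08, was not called, and its fold change of enrichment was -0.47 (SE 0.08, limma adjusted p = 0.00173). VMP1 had -0.42 (SE 0.07, limma adjusted p = 0.00161). ATG9A had -0.17 (SE 0.07, limma adjusted p = 0.0789), and its dimmer probe 0.05.

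Of 9 measured conjugation genes, 3 were higher, 3 lower and 3 not called, beside 28.1% higher and 43.3% lower over all genes. ATG7, the E1-like enzyme that activates both ATG12 and the ATG8 proteins, had RIP levels of -3.65 and -4.03 in miR-NC cells and of -2.17 and -1.99 in miR-634 cells. Its inputs were -3.61 and -3.59 in miR-NC cells and -3.77 and -3.68 in miR-634 cells. The enrichment in miR-NC cells, -0.24 (SE 0.13, limma adjusted p = 0.126), was not called, and the miR-634 RIP arrays stood above all others. ATG7 thus had a fold change of enrichment of 1.88 (SE 0.18, limma adjusted p = 0.000143). A second ATG7 probe was not well above background on the miR-NC RIP arrays, and its miR-634 RIP level was at least 1.32-fold higher than theirs.

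ATG4A, a cysteine protease that trims ATG8 proteins and releases them from membrane, had RIP levels of -2.14 and -1.81 in miR-NC cells and of -0.14 and 0.30 in miR-634 cells. Its inputs were -3.49 and -3.35 in miR-NC cells and -2.99 and -3.16 in miR-634 cells. RIP exceeded input on every array pair, and the gap widened with miR-634, to an enrichment of 3.15, the highest of the 34 genes in miR-634 cells. The fold change of enrichment was 1.71 (SE 0.24, limma adjusted p = 0.000889). With spike-in scaling ATG4A was depleted in the RIP of miR-NC cells, at -1.14. ATG4D, another protease of this family, had RIP levels of -3.11 and -3.04 in miR-NC cells and of -2.53 and -2.38 in miR-634 cells, with a fold change of enrichment of 0.64 (SE 0.12, limma adjusted p = 0.00309). ATG4C had -0.59 (SE 0.23, limma adjusted p = 0.0548) from its brightest probe. A dimmer ATG4C probe gave -1.12, and the mean of both gave -0.85, which was called.

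ATG4B, the family member that acts on most ATG8 proteins, depended on the probe. Its brightest probe, for NM_013325, gave -0.11 (SE 0.17, limma adjusted p = 0.586). The dimmer probe for NM_178326 had RIP levels of -2.67 and -2.51 in miR-NC cells and of -1.59 and -1.57 in miR-634 cells, and gave 0.90. These probes disagreed in sign.

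Downstream of ATG7, the E2-like enzyme ATG3 had -0.45 (SE 0.09) and ATG12, the ubiquitin-like protein that ATG7 activates, had -0.54 (SE 0.09). The RIP levels of ATG12 were -0.97 and -1.03 in miR-NC cells and -1.40 and -1.54 in miR-634 cells. ATG16L1, which guides the ATG12-ATG5 conjugate to the membrane, had -0.39 (SE 0.06), but its dimmer probe gave 0.22 and the call was lost with the mean of its probes. ATG5 itself had -0.13 (SE 0.11, limma adjusted p = 0.309), and its dimmer probe 0.35. ATG3, ATG12 and ATG16L1 were all lower. With spike-in scaling ATG3 and ATG16L1 were higher, at 0.65 and 0.71, and ATG12, at 0.56, was not called.

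**Figure D2:**
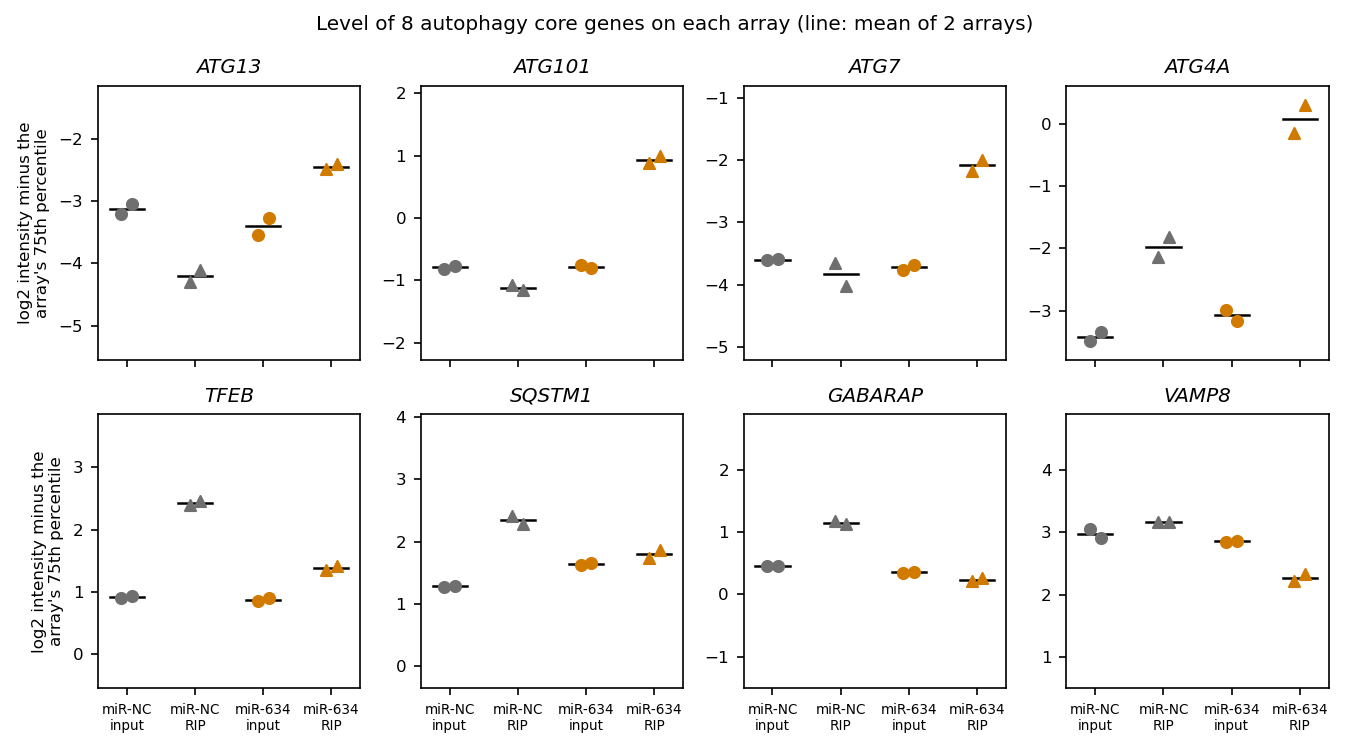
Level of 8 autophagy genes on each of the 8 arrays, in log2 units relative to the 75th percentile of each array (y axis, the same span in each panel); circles are input, triangles RIP, grey miR-NC, orange miR-634, and the line is the mean of 2 arrays. The miR-634 RIP arrays are the highest for ATG13, ATG101, ATG7 and ATG4A, and lie below the miR-NC RIP arrays for TFEB, SQSTM1, GABARAP and VAMP8 on this scale (with spike-in scaling the RIP change of SQSTM1 was 0.32 and was not called).

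All 4 measured ATG8 family genes had a lower enrichment in miR-634 cells, with a median of -0.72. Over all genes, 43.3% were lower and the median was -0.22. With spike-in scaling, however, the values of the 4 ATG8 genes were 0.28 to 0.85. GABARAP had RIP levels of 1.18 and 1.13 in miR-NC cells and of 0.21 and 0.26 in miR-634 cells. Its inputs were 0.45 on both miR-NC arrays and 0.35 and 0.36 on the miR-634 arrays. The RIP thus lay above the input in miR-NC cells and below it in miR-634 cells, where the difference, -0.12 (limma adjusted p = 0.0405), stayed called in 8 of the 20 alternatives. The fold change of enrichment of GABARAP was -0.82 (SE 0.06, limma adjusted p = 5.31e-05). With spike-in scaling its enrichment in miR-NC cells was -1.88.

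MAP1LC3B, which encodes the LC3 protein used as a marker of autophagosomes, was depleted in the RIP of both kinds of cells. Its RIP levels were -1.71 and -1.66 in miR-NC cells and -2.14 and -2.29 in miR-634 cells, and its fold change of enrichment was -0.74 (SE 0.09, limma adjusted p = 0.000335). A dimmer MAP1LC3B probe, which missed the background limit on 1 miR-NC RIP array, gave -0.24, with a RIP change of 0.03. MAP1LC3B has a near-identical copy, MAP1LC3B2, and GABARAPL1 has one in GABARAPL3, so that their probes may read both. GABARAPL1 had -0.69 (SE 0.09) from its brightest probe and -0.09 from a dimmer one, and its call was lost with the mean of the probes. GABARAPL2 had the smallest fall, -0.25 (SE 0.08, limma adjusted p = 0.0237), which was -0.04 with centring and was then not called, and whose call was kept in 10 of the 20 alternatives.

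The cargo receptors, which carry ubiquitinated proteins and organelles to ATG8 proteins, were lower in 4 of 4 measured genes, with a median of -0.50. Over all genes, 43.3% were lower and the median was -0.22. With spike-in scaling, however, the values of the 4 receptors were 0.20 to 0.84. SQSTM1, also known as p62, had RIP levels of 2.42 and 2.29 in miR-NC cells and of 1.74 and 1.87 in miR-634 cells. Its inputs moved the other way, from 1.28 and 1.30 to 1.62 and 1.66. Neither pair of groups overlapped. The fold change of enrichment of SQSTM1 was -0.90 (SE 0.09, limma adjusted p = 0.000198).

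TAX1BP1, a receptor with a ubiquitin-binding zinc finger, had RIP levels of 0.988 and 0.997 in miR-NC cells and of 0.51 on both miR-634 arrays, and a fold change of -0.68 (SE 0.06, limma adjusted p = 0.000129). NBR1, a partner of SQSTM1, had -0.26 (SE 0.08) and OPTN, a mitophagy receptor, had -0.32 (SE 0.12, limma adjusted p = 0.0444). Both calls were lost with centring on the median gene, that of NBR1 was kept in 13 of the 20 alternatives and that of OPTN in 3.

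The SNAREs STX17, on the autophagosome, and VAMP8, on the lysosome, were both lower, beside 43.3% of all measured genes. With spike-in scaling they had 0.38 and 0.33, and neither was called. VAMP8 had RIP levels of 3.17 and 3.16 in miR-NC cells and of 2.22 and 2.33 in miR-634 cells, against inputs of 3.05, 2.91, 2.85 and 2.87. Its fold change of enrichment was -0.77 (SE 0.09, limma adjusted p = 0.000361). STX17 had RIP levels of -2.76 and -2.68 in miR-NC cells and of -3.34 and -3.48 in miR-634 cells, while its 4 inputs lay between -4.42 and -4.204. It stayed above the input in both kinds of cells, with a fold change of -0.72 (SE 0.13, limma adjusted p = 0.00286).

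TFEB, a transcription factor that drives lysosomal and autophagy genes, had the lowest fold change of enrichment of the 34 genes, although its value with spike-in scaling was 0.11. Its RIP levels were 2.39 and 2.46 in miR-NC cells and 1.36 and 1.42 in miR-634 cells, with inputs of 0.90 and 0.94 and of 0.85 and 0.91. By this probe the RIP stayed above the input in both kinds of cells, by 1.503 and by 0.51. With spike-in scaling these enrichments were -1.08 and -0.97. The fold change of enrichment was -0.99 (SE 0.07, limma adjusted p = 4.12e-05). A dimmer TFEB probe for NM_001271943 gave -1.42, with an enrichment of 0.13 in miR-NC cells and of -1.29 in miR-634 cells. With the mean of both probes the enrichment in miR-634 cells was called lower, at -0.39.

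Input levels of the autophagy genes changed less than the RIP. With miR-634, the input level was higher for 7 of the 34 genes and lower for 0 by limma, where 11.7% of all measured genes were higher and 12.1% lower. At an unadjusted p under 0.05, 8 were higher and 2 lower, and with quantile normalization, an intensity trend, a replicate block or the mean of the probes 1 was lower. The 7 were ATG2A (0.39, SE 0.05, adjusted p = 0.00493), SQSTM1 (0.36, SE 0.07, adjusted p = 0.0124), MAP1LC3B (0.21), AMBRA1 (0.20), TAX1BP1 (0.19), BECN1 (0.15) and ATG16L1 (0.15). Without any 1 of the 4 input arrays 1 gene stayed called, ATG2A, and with spike-in scaling 0 were called. All 7 were among the 20 genes with a lower fold change of enrichment, and so made up 35.0% of them. Over all measured genes, 18.9% of those with a lower fold change of enrichment had a called higher input. The fold change of enrichment is the RIP change minus the input change, so a higher input lowers it by construction. Of all measured genes with a called higher input, 897 had a lower and 141 a higher fold change of enrichment.

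The 5 genes with a higher fold change had no called input change. Their input changes were -0.28 for ATG13, 0.01 for ATG101, -0.12 for ATG7, 0.34 for ATG4A and -0.03 for ATG4D. Among all genes with a higher fold change of enrichment, which a lower input raises by construction, 929, or 30.2%, had a called lower input. Of these 5 autophagy genes, 0 did. Their RIP changes were 1.75 for ATG13, 2.05 for ATG101, 1.75 for ATG7, 2.06 for ATG4A and 0.61 for ATG4D. The RIP level was higher with miR-634 for 7 of the 34 genes, where 30.9% of all measured genes were higher, and lower for 22, where 46.5% were lower. PIK3C3 (0.22) and PIK3R4 (0.19) were the other genes with a higher RIP level. With centring on the median gene, 7 were higher and 13 lower, beside 4251 and 3894 of all 10956 genes. With spike-in scaling, 20 were higher and 0 lower, beside 7271 and 357.

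**Figure D3:**
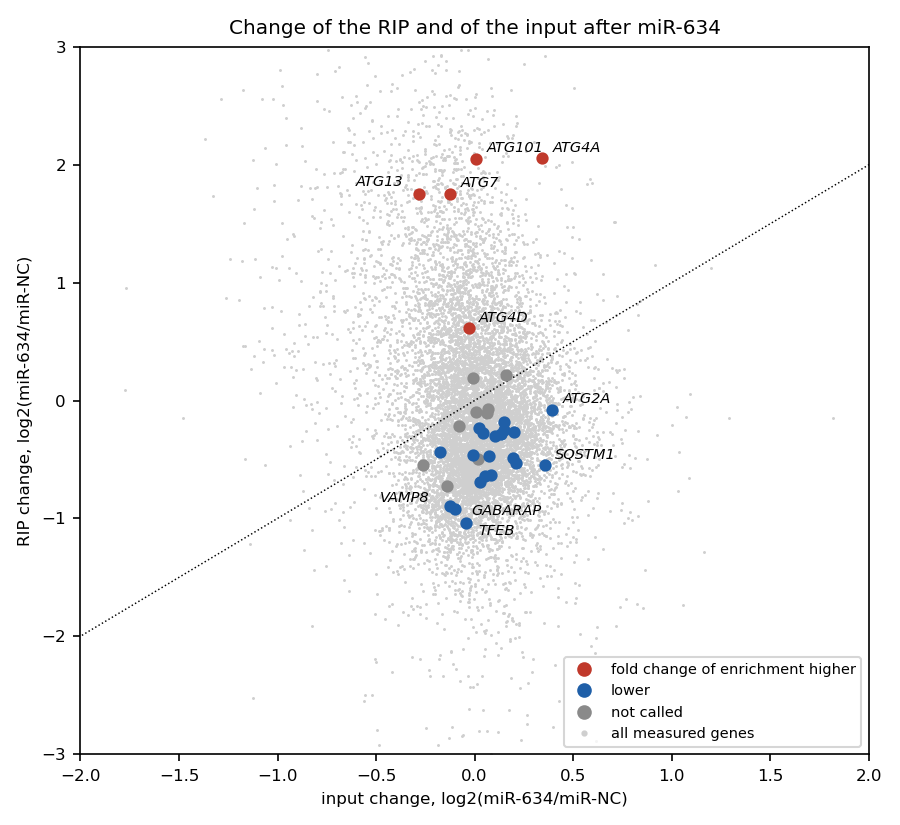
Change of the input level (x axis) and of the RIP level (y axis) after miR-634, both as log2 miR-634/miR-NC, for the 34 autophagy genes (colours by the call on the fold change of enrichment) and all measured genes (light grey; 49 lie outside the axes); on the dotted line both changes are equal. The 5 red genes lie above the line with RIP changes of 0.61 to 2.06 and no called input change, while the blue genes lie below it, except with spike-in scaling.

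Genes that changed side between RIP and input were counted in both kinds of cells. GABARAP, GABARAPL1, VAMP8, VMP1 and WIPI2 were called higher in the RIP than in the input in miR-NC cells and lower in miR-634 cells. This was 5 of 34 genes, or 14.7%, beside 6.10% of all measured genes, and several of these calls rested on the settings. Of the 20 alternatives, both calls were kept in 7 for GABARAP, 11 for VAMP8, 13 for WIPI2, 15 for VMP1 and 17 for GABARAPL1. The enrichment of VAMP8 in miR-NC cells was 0.19 (limma adjusted p = 0.0312). With centring on the median gene, the enrichment in miR-634 cells was 0.05 for GABARAP and 0.00 for WIPI2, and with spike-in scaling all 5 were depleted in miR-NC cells too. ATG13 and ATG101 changed in the other direction (2 of 34, 5.88%, beside 8.45% of all genes). A further 10 were higher in the RIP in both kinds of cells, among them STX17, ULK1, ATG9A and, by its brightest probe, TFEB. With spike-in scaling, however, the enrichment of these named genes was -0.97, -1.37, -1.26 and -1.08 in miR-NC cells. In miR-634 cells it was then -0.59, -0.55, -0.33 and -0.97. On the main scale, 11 genes were lower in both kinds of cells, among them RB1CC1, MAP1LC3B and BECN1.

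**Figure D4:**
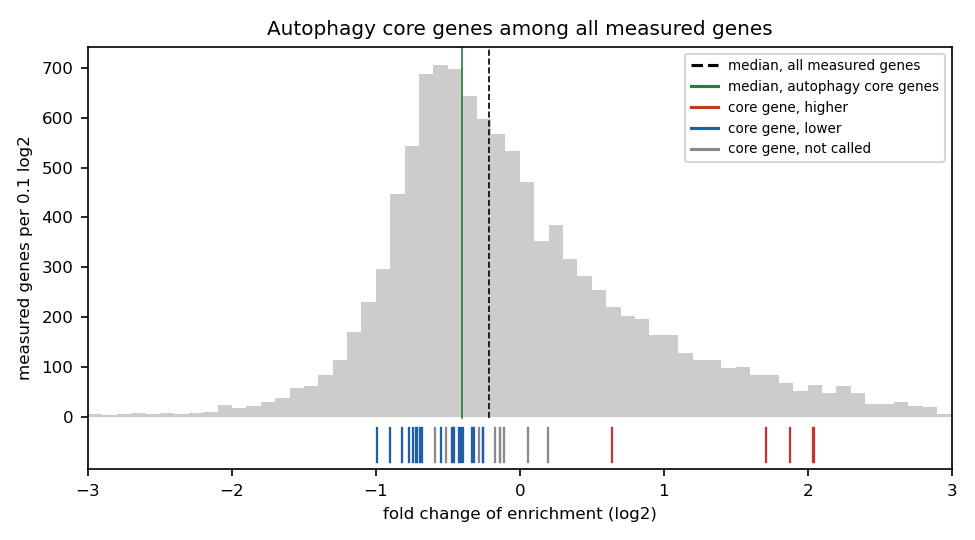
Fold change of enrichment, on the log2 scale (x axis), of all measured genes as a histogram (y axis, genes per 0.1; 103 genes lie outside the axis), with the 34 autophagy genes as ticks below. The medians are -0.40 for the autophagy genes and -0.22 for all, and ATG13, ATG101, ATG7 and ATG4A lie apart from the other autophagy genes, above 1.5.

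Of the 34 genes, 10 had several probes above background on all 8 arrays. In 5 of them the probes gave opposite signs of the fold change (ATG16L1, ATG4B, ATG5, ATG9A and WIPI2), and in 6 they lay more than 0.5 apart. The 2 ATG13 probes and the 2 TFEB probes each gave 1 sign.

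The remaining 9 listed genes were not well above background on all 8 arrays. ATG10, the E2-like enzyme for ATG12, and WIPI1, a paralog of WIPI2, missed it on 1 miR-NC RIP array each. Just outside the limit, ATG10 had mean input and RIP levels of -4.53 and -5.25 with miR-NC and of -4.83 and -5.79 with miR-634, and WIPI1 had -5.47 and -4.78 with miR-NC and -5.34 and -4.66 with miR-634. Just inside it, ULK2 had -4.12 and -4.42 with miR-NC and -4.11 and -4.91 with miR-634.

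Where such a gene was above background in 1 group and not in another, a bound was set on the fold, taken against the higher of its own dim signal and the lowest signal above background on each array, with no test. ATG2B, the second ATG2 lipid transfer protein, was at least 2.33-fold higher in the input than in the RIP of miR-NC cells. Its RIP level in miR-634 cells was at least 1.21-fold higher than that in miR-NC cells, where it was not well above background. The receptor CALCOCO2 and the SNARE SNAP29 were at least 1.56-fold and 1.497-fold higher in the input than in the RIP of miR-NC cells. UVRAG, a BECN1 partner, was at least 1.88-fold higher in the input than in the RIP of miR-634 cells. ATG14, the subunit that directs PIK3C3 to autophagosomes, was at least 1.77-fold higher in the miR-NC input than in the miR-634 input. The tether EPG5 was above background only on the input arrays, and MAP1LC3A on 1 miR-634 input array.

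A wider list of 45 genes of the pathway (other core genes, nutrient and energy sensing, selective receptors, tethering and fusion, transcription) had 37 measured genes. Of these, 11 had a higher and 15 a lower fold change of enrichment, with a median of -0.19, beside 28.1% and 43.3% and a median of -0.22 for all genes. The named genes are those at 1 or more on the log2 scale. NRBF2, a subunit of the ATG14 form of the PIK3C3 complex, had -2.31 (SE 0.10, limma adjusted p = 5.61e-06), with an enrichment that went from 1.34 to -0.96 and an input change of 0.87. RAB7A, the GTPase of late endosomes that serves fusion with the lysosome, had -2.54 (SE 0.24, limma adjusted p = 0.000144). Both fell further than any core gene.

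FUNDC1, a mitophagy receptor of the outer mitochondrial membrane, had 2.02 (SE 0.07, limma adjusted p = 1.8e-06). MLST8, a subunit of the mTOR complexes that restrain ULK1, had 1.71, and TSC1, which restrains mTORC1, had 1.33 with an input change of -0.76. RUBCN, an inhibitor of autophagosome maturation, had 1.15 with an input change of -0.50. YKT6 (1.22), a SNARE that acts beside STX17, VPS39 (1.04), a tethering subunit, and ATG16L2 (1.17), a paralog of ATG16L1, were also higher. The value of ATG16L2 had an SE of 0.37 (limma adjusted p = 0.0261), and its miR-NC RIP levels were -4.03 and -4.84.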

How the data were processed

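A431 cells with miR-NC or miR-634 (10 nM, 24 h) gave input and AGO2 RIP arrays, 2 per group (8 arrays), grouped by the labels. Per the file headers, the deposited intensity of a spot came from Agilent Feature Extraction 12.0.1.1 (the labels name 9.1), background-subtracted and not normalized between arrays, from a design annotated on hg19, and no coordinates are taken from it. They also deposited log2 values from GeneSpring, which matched (Pearson r of 1 per array) log2 intensity minus the 75th percentile over all probes, centred per probe on its median. Their column medians were -0.44, -0.38, 0.87, 0.86, -0.42, -0.39, 0.36 and 0.32 (input then RIP, first of miR-NC, then of miR-634 cells), and no scale, centring or direction stayed unknown beyond that match.

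Here, control and outlier spots were left out, spots of a probe were averaged, and 22 probes without a usable spot on some array were dropped. Because 28.9% of 58201 probes were above background on all arrays, the 75th percentile of these 16805 probes was subtracted from each array's log2 intensity. RefSeq (GRCh38.p14) named 31104 of the 33080 probes that carry a RefSeq accession. For probes it left unnamed, the study's accession list was used. Group means were fitted with limma 3.58.1 (R 4.3.3, eBayes), Benjamini-Hochberg, threshold 0.05. The precision is limited by the number of arrays. Arrays with the same number deviated together by r of -0.04 to 0.08, highest for input and RIP of the same kind of cells (0.07 and 0.08). Spread between arrays could hide a pairing, so these values cannot show whether the numbers pair the arrays. The members, the wider list and the tests were chosen with earlier results of these data known. Named genes are all measured members, and genes of the wider list with an adjusted p under 0.05 and a log2 change of at least 1. There were 12 alternatives besides leaving out each of the 8 arrays: quantile normalization with or without normexp (offset 50), scaling by the median, by the percentile over all probes or by spike-ins, centring on the median gene, the authors' values, an input-only or no filter on dim probes, the probes' mean, an intensity trend and a replicate block. The scripts were tested on simulated data. Python 3.11.15 and matplotlib 3.10.9 drew the plots.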

Additional observations from a re-analysis of the deposited data

Results flagged for a closer look

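For these results, the effect differed between miR-634 and miR-NC cells by the limma interaction contrast over all measured genes. Of the 34 measured autophagy genes, 5 had a higher and 20 a lower fold change of enrichment. Over all measured genes, 28.1% had a higher and 43.3% a lower one. For 7 genes RIP against input was also called in opposite directions in the 2 kinds of cells, 2 from lower to higher (5.88%, beside 8.45% of all measured genes) and 5 from higher to lower (14.7%, beside 6.10%). Their fold changes of enrichment were 2.04 for ATG13 and 2.05 for ATG101, which went from lower to higher in the RIP. They were -0.71 for WIPI2, -0.42 for VMP1, -0.82 for GABARAP, -0.69 for GABARAPL1 and -0.77 for VAMP8, which went from higher to lower. A dimmer probe gave 0.06 for WIPI2 and -0.09 for GABARAPL1. Of the 20 alternatives, both opposite calls were kept in 19 for ATG13 and ATG101, 7 for GABARAP, 11 for VAMP8, 13 for WIPI2, 15 for VMP1 and 17 for GABARAPL1.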

How the results depend on the processing

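The 5 genes with a higher fold change of enrichment were called higher in all 20 alternatives. Of the 20 with a lower one, 11 were called lower in all 19 alternatives besides spike-in scaling, and 9 (ATG16L1, ATG3, BECN1, GABARAPL1, GABARAPL2, NBR1, OPTN, ULK3 and WIPI2) lost the call in at least 1. With 1 array left out in turn, 5 genes were higher and 17 to 21 lower in the fold change of enrichment, 1 to 6 higher and 0 to 1 lower in input, 5 to 7 higher and 21 to 23 lower in RIP, 17 to 18 higher and 13 to 14 lower in the enrichment in miR-NC cells, and 13 to 14 higher and 15 to 18 lower in that in miR-634 cells. The lone array of a group was then assumed to vary like the other groups.

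The number of genes with a higher input was 2 with the 75th percentile over all probes and with the authors' values, 1 without a filter on dim probes, 4 with the mean of the probes, 4 with the replicate block and 0 with spike-in scaling. With the filter on the input arrays only, 3 genes lost the call on a higher input. A lower input was called for 1 gene with quantile normalization, the mean of the probes, the intensity trend and the replicate block. The RIP was lower for 13 genes with the 75th percentile over all probes, with the authors' values and with centring on the median gene. Of all 10956 genes, 3714, 3722 and 3894 were lower in these settings. Besides these input counts, the replicate block moved no count by over 1.5 times, and it gave 5 higher and 21 lower fold changes of enrichment. Centring on the median gene, and scaling by spike-ins, by the median or by the percentile over all probes, shift every gene of a contrast equally. For the other settings, the cause was not tested.

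With spike-in scaling, which rests on 8 probes, 22 genes were higher and 0 lower in the fold change of enrichment, 20 higher and 0 lower in RIP, 0 higher and 34 lower in the enrichment in miR-NC cells, and 1 higher in that in miR-634 cells. Over all 10956 measured genes, 7284 were then higher and 177 lower in the fold change of enrichment, and 7271 and 357 in RIP. In the enrichment, 57 were higher and 10751 lower in miR-NC cells, and 665 were higher in miR-634 cells. Among the autophagy genes, 27 values of the fold change of enrichment, 24 of the RIP change and 19 of the input change changed sign under this scaling. ULK2 and ATG4C in the first, ULK2 in the RIP change and 14 genes in the input change were called on neither scale. Those called on at least 1 scale were, for the fold change of enrichment, ULK1 0.82, ULK3 0.69, RB1CC1 0.97, BECN1 0.77, AMBRA1 0.64, WIPI2 0.39, ATG2A 0.63, ATG9A 0.93, VMP1 0.68, ATG3 0.65, ATG4B 0.99, ATG5 0.97, ATG12 0.56, ATG16L1 0.71, MAP1LC3B 0.36, GABARAP 0.28, GABARAPL1 0.41, GABARAPL2 0.85, SQSTM1 0.20, NBR1 0.84, OPTN 0.78, TAX1BP1 0.42, STX17 0.38, VAMP8 0.33 and TFEB 0.11. For the RIP change they were ULK1 0.32, ULK3 0.56, RB1CC1 0.80, BECN1 0.68, AMBRA1 0.60, WIPI2 0.23, ATG2A 0.79, ATG9A 0.75, VMP1 0.58, ATG3 0.40, ATG4B 0.77, ATG4C 0.14, ATG5 0.65, ATG12 0.39, ATG16L1 0.62, MAP1LC3B 0.33, GABARAPL1 0.22, GABARAPL2 0.63, SQSTM1 0.32, NBR1 0.43, OPTN 0.59, TAX1BP1 0.38 and STX17 0.18. For the input change they were BECN1 -0.089, AMBRA1 -0.034, ATG16L1 -0.089, MAP1LC3B -0.025 and TAX1BP1 -0.042. For the enrichment in miR-NC cells they were ULK1 -1.37, ULK3 -0.63, PIK3C3 -2.11, AMBRA1 -2.08, WIPI2 -2.04, ATG2A -1.81, ATG9A -1.26, VMP1 -2.38, ATG4A -1.14, ATG4C -1.88, ATG4D -1.87, ATG16L1 -1.05, GABARAP -1.88, GABARAPL1 -2.23, SQSTM1 -1.52, STX17 -0.97, VAMP8 -2.39 and TFEB -1.08. For the enrichment in miR-634 cells they were ULK1 -0.55, ATG13 -0.53, PIK3C3 -0.96, AMBRA1 -1.45, ATG2A -1.18, ATG9A -0.33, ATG4C -1.37, ATG4D -0.12, ATG16L1 -0.35, SQSTM1 -1.32, STX17 -0.59 and TFEB -0.97.

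With the mean of the probes, values of opposite sign that were called by at least 1 of both rules were, for ATG4B, 0.39 in the fold change of enrichment, 0.45 in the RIP change and 0.038 in the enrichment in miR-634 cells, and for that enrichment also ATG4C -0.36, ATG5 0.12 and TFEB -0.39. ATG5 also changed sign without a call, to 0.11 in the fold change of enrichment and 0.015 in the enrichment in miR-NC cells, as did GABARAPL1 and TFEB in the input change and ATG2A and ATG9A in the RIP change. With centring on the median gene, the enrichment in miR-634 cells was 0.00049 for WIPI2 and 0.054 for GABARAP. Genes that were not well above background have only bounds, and with 2 arrays a group, small changes cannot be told from none.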
